A study of Rattus norvegicus with 16 samples.

Results

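The genes described here are the chemokines and chemokine receptors of rat liver, followed from young adulthood to old age. They were taken by name: every gene on the array whose symbol begins with Ccl, Cxcl, Cx3cl, Xcl, Ccr, Cxcr, Cx3cr or Xcr and a number. That gave 52 genes on 59 probes, of 35119 genes on 41012 probes. They are 32 ligands and 20 receptors. Of the 52, 29 lay well above background on every array of at least 1 age and were tested, among 21478 genes tested in all.

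Chemokines are small secreted proteins that draw leukocytes along a gradient towards their source. They act on receptors of the leukocyte surface that couple to inhibitory G proteins, and binding is followed by integrin activation and migration out of the vessel. ELR CXC ligands attract neutrophils, CC ligands attract mainly monocytes and lymphocytes, and the ligands of Cxcr3 are induced by interferon gamma. In liver, hepatocytes, sinusoidal endothelium, stellate cells and Kupffer cells, the resident macrophages, make them, and the responding cells arrive with the blood.

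Whole liver came from male Lewis rats, an inbred strain, with no treatment or allele named at any age. The 5 ages were 3 months (n = 3), 9 months (n = 3), 12 months (n = 3), 18 months (n = 3) and 24 months (n = 4), and each of the 16 samples was hybridised to its own one-colour array. Nothing says that the samples of an age were separate animals, so the spread given may be technical in part. Signals are given on the log2 scale after subtracting the array's own 75th percentile, which therefore lies at 0. Errors of group means are SD between arrays, and those of differences are standard errors (SE) from limma.

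The share of probes well above background ran from 52.5% to 65.2% of an array. How precise a value is depends on how many arrays there were. All 10 hepatocyte markers were above background on all 16 arrays. In whole liver, fewer cells of a type and less RNA per cell cannot be told apart. Array 2 of 12 months and arrays 3 and 4 of 24 months stood apart from the others of their age (mean correlation 0.966, 0.974 and 0.975). The 3-month arrays shared slide 1 with array 2 of 9 months, and 9 and 12 months shared slide 2. Scan session here stands for the calendar year of the scan date alone. Between 18 and 24 months no slide, scan day or scan session was in common, so age and batch cannot be told apart there. The 3-month and 24-month arrays were on different slides and scanned on different days, although in the same calendar year. Slide and scan day therefore cannot be told apart from age in that comparison. All 18-month arrays were on slide 7, which held no 12-month array. Arrays 3 and 4 of 12 months had the same scan day as those of 18 months.

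Which chemokine genes the liver showed at all differed between ligands and receptors. Of the 32 ligands, 23 were tested and 18 lay above background on all 16 arrays. Of the 20 receptors, 6 were tested, among them Ccr2, Ccr1l1, Cxcr3, Cxcr4 and the receptor that the array lists as Cxcr7, a scavenger of Cxcl12 now named Ackr3. There were 9 members above background on none of the arrays: the ligands Ccl11, Ccl26 and Ccl28 and the receptors Ccr3, Ccr4, Ccr6, Ccr8, Cxcr1 and Xcr1. Another 14 reached background on some arrays without filling an age: Ccl7, Ccl17, Ccl20, Ccl25, Cxcl3, Cxcl6 (listed by the array as Cxcl5), Ccr1, Ccr7, Ccr9, Ccr10, Cx3cr1, Cxcr2, Cxcr5 and Cxcr6. The most often seen of these were Cxcl6 and Cxcr6, each above background on 8 arrays.

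**Figure D1:**
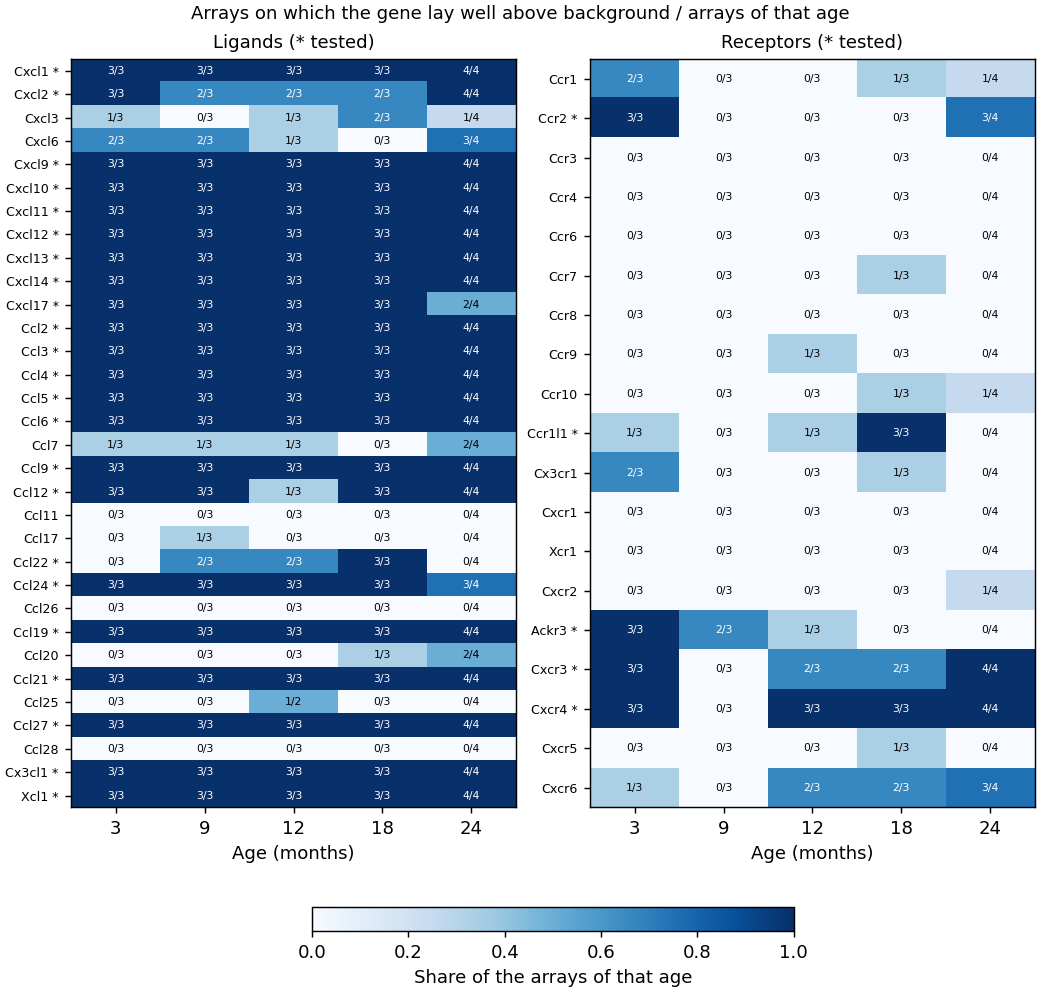
For 51 of the genes (rows) and each age in months (columns), the number of arrays on which the gene lay well above background over the arrays measured; darker blue is a larger share, and an asterisk marks the 28 tested genes shown. Ligand rows are mostly filled, whereas 5 of the 19 receptors shown fill at least 1 age; Ccl25 has 1 missing value at 12 months.

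Several members sit in gene clusters. On the array design's build, rn4, the probes of Cxcl2, Cxcl1, Cxcl3 and Cxcl6 lie within chr14:18677236-18825719, and those of Cxcl11, Cxcl10 and Cxcl9 within chr14:17252192-17288890. A further 4 CC ligands (Ccl2, Ccl7, Ccl11 and Ccl12) lie within chr10:70257919-70322401, and 5 (Ccl5, Ccl9, Ccl6, Ccl3 and Ccl4) within chr10:71606089-71760326. The receptors Ccr9, Cxcr6, Xcr1, Ccr1, Ccr1l1, Ccr3 and Ccr2 lie within chr8:128541057-128893864. Cxcl14 lies outside these clusters, at chr17:14291546-14291605.

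The region just before the start of a chemokine gene often holds sites for the inflammatory factor NF-κB, and that of interferon-induced genes can hold interferon-response elements (ISRE). The 250 bases before the start are shown for the inflammatory ligands Cxcl1, Cxcl2 and Cxcl10 and for Cxcl14, whose course over age was the opposite of that of Cxcl1 between 3 and 9 months. They are from RefSeq on the GRCr8 build, read 5′ to 3′ on the strand of the gene, with matches to the NF-κB motif or to the ISRE letters (GAAA, any 2 bases, and GAAA again), searched on both strands, in capitals.
Cxcl1: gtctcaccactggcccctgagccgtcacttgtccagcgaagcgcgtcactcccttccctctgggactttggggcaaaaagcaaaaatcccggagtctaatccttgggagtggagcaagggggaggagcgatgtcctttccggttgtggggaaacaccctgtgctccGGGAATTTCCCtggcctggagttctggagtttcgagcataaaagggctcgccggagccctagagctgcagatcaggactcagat
Cxcl2: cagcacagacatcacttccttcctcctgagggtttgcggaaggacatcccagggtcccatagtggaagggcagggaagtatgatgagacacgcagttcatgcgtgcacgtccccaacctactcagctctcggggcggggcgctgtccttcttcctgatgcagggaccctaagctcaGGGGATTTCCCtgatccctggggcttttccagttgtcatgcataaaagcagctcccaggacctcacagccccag
Cxcl10: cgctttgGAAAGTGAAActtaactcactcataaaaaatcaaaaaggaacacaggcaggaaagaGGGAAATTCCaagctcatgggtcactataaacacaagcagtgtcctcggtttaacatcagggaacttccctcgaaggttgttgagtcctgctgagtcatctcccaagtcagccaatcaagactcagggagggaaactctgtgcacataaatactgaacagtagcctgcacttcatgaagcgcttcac
Cxcl14: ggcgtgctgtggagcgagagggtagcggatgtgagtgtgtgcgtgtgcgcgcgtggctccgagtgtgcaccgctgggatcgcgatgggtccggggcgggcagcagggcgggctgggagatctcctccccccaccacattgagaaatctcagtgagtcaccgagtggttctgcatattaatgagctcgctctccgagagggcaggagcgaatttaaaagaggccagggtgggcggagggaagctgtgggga

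These windows are chr14:17479322-17479571 (minus strand) for Cxcl1, chr14:17467256-17467505 (minus) for Cxcl2, chr14:15988816-15989065 (plus) for Cxcl10 and chr17:8322900-8323149 (plus) for Cxcl14. The run in capitals began 84 bases before the start of Cxcl1 and 74 bases before that of Cxcl2. In Cxcl10 the ISRE letters began 243 bases and the NF-κB match 187 bases before the start. The Cxcl14 window held neither set of letters. Of 33469 RefSeq promoters of that length, 3.54% held the NF-κB motif and 3.41% the ISRE letters. Of 38 member promoters in the table, 8 held the NF-κB motif (Cxcl1, Cxcl2, Cxcl6, Cxcl10, Cxcl11, Ccl9, Ccl20 and Ccr3) and 2 the ISRE letters (Ccl19 and Cxcl10). A match is a run of letters, not a measured binding site.

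Over the 5 comparisons of ages, the chemokine genes moved mainly between 3 and 9 months and between 18 and 24 months. A gene is called where its adjusted p over all 21478 genes is under 0.05. At 9 against 3 months 6 of the 29 tested members were called, 5 lower and 1 higher, where 5.14% of all genes were called (3.2% lower and 1.94% higher). At 24 against 18 months 15 were called, 12 higher and 3 lower, where 25.8% of all genes were called (10.8% higher and 15% lower). Of the 3 lower, Ccl22 and Ccr1l1 passed the filter through 18 months alone, so their lower level at 24 months follows in part from the filter. Of the 12 higher, Cxcr3 passed through 3 and 24 months alone, so its higher level at 24 months also follows in part from the filter. Between the oldest and youngest livers, by contrast, 1 member was called, Cxcl14, which was higher, against 13.3% of all genes (4.24% higher). There 9 members had an unadjusted p under 0.05, and the adjusted p of Cxcr3 (0.0538) and Cxcl12 (0.0553) lay just above the threshold. The lack of a call does not show that a member was back at its 3-month level. For 12 against 9 months 1 member was called, Cxcr4, which was higher, against 6.28% of all genes (3.18% higher). For 18 against 12 months limma called 0 members, with 5 at an unadjusted p under 0.05, against 1.39% of all genes.

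Median differences followed the same course. The 29 tested members had a median log2 difference of -0.87 at 9 against 3 months (0.04 over all genes), 0.26 at 12 against 9 (-0.01), 0.06 at 18 against 12 (-0.06), 0.78 at 24 against 18 (0.05) and 0.28 at 24 against 3 (-0.04).

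The 2 comparisons with most calls share no arrays. Of the 6 members called at 9 against 3 months, 4 were called again at 24 against 18 months, all in the opposite direction. In that later step 25.8% of all genes were called. The share of all genes called in both steps was not counted, so this result cannot be set apart from that of other genes. Among the 4 members, Ccl3 and Ccl6 fell and later rose, and Cxcl14 rose and later fell. A lower mean at 9 than at 3 months and a higher one at 24 than at 18 months was found for 15 of the 29 tested members (51.7%) and for 25.9% of all genes. All 9-month arrays lay below all 3-month arrays for 17 of the 29 (18% of all genes), and all 24-month arrays above all 18-month arrays for 12 (17.3% of all genes). The 15 and the 17 include Cxcl2 and Cxcr3, which passed the filter through 3 and 24 months alone. They also include Ccr2, which passed through 3 months alone. For these members the lower level at 9 months, and for Cxcl2 and Cxcr3 the higher one at 24 months, follows in part from the filter. An F test of any age difference called 16 members, where 37.4% of all genes were called.

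**Figure D2:**
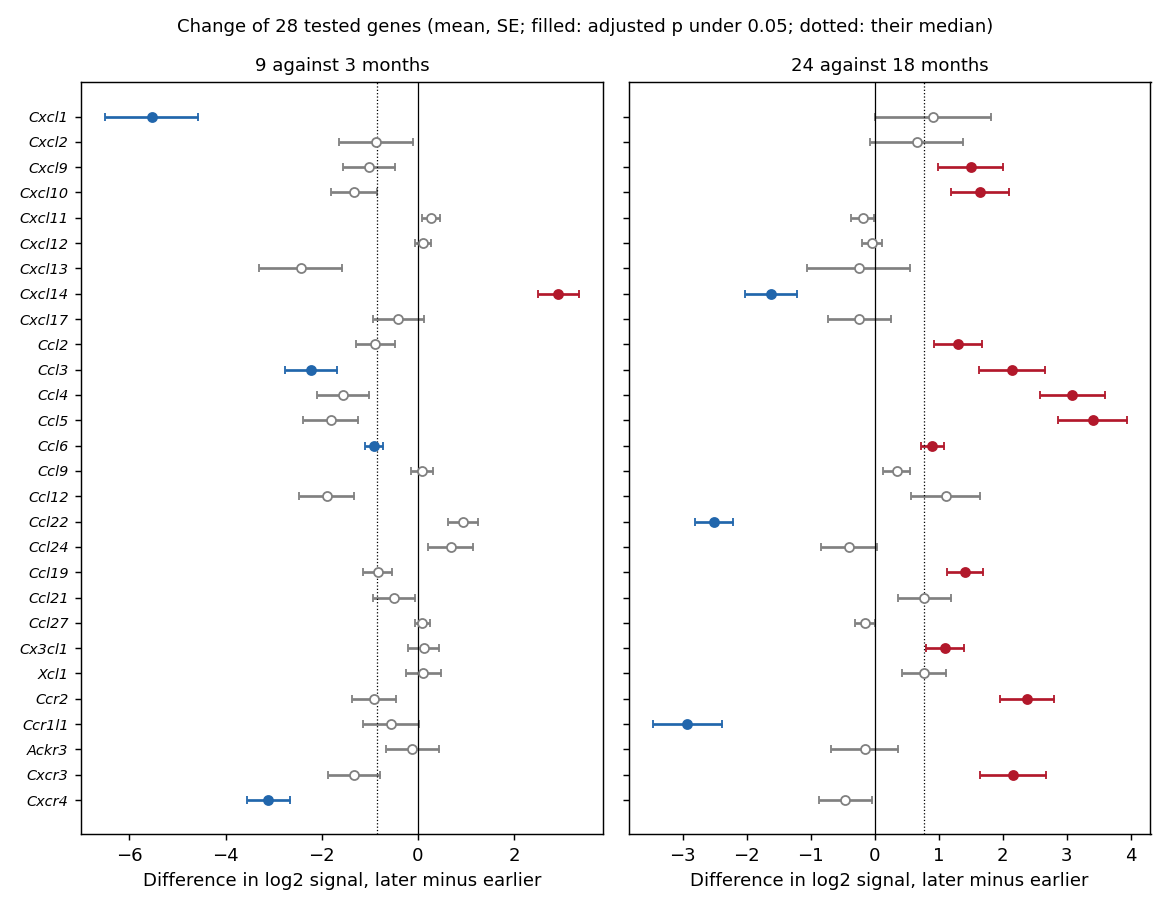
Difference in log2 signal, later minus earlier age (horizontal axis), for 28 tested genes in order of role (vertical axis), with SE; filled red is called higher, filled blue called lower, open grey not called, and the dotted line is the median of the genes shown. Most points lie left of 0 at 9 against 3 months (19 of 28) and right of it at 24 against 18 months (17 of 28), and Cxcl14 runs the other way in both.

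The ELR CXC ligand Cxcl1 (NCBI gene 81503), the main neutrophil chemokine of the rat, gave the largest change of any member. At 3 months its values were 5.03, 4.93 and 5.03. By 9 months they were -0.65, -0.81 and -0.17. The 3-month arrays lay close together and far above the 9-month ones, and the difference was -5.54 (SE 0.97, adjusted p = 0.00516), a signal 46.5-fold lower. On slide 1 alone, which held all 3-month arrays and array 2 of 9 months, it was -5.80 (adjusted p = 0.00473, with the lone 9-month array assumed to vary like the 3-month ones).

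After 9 months Cxcl1 spread widely. It read 1.52, 1.73 and 2.97 at 12 months, 2.17, 2.31 and 4.61 at 18 months, and 4.33, 2.40, 6.81 and 2.20 at 24 months. All 12-month arrays lay above all 9-month ones, yet the difference of 2.62 (SE 0.97) was not called (adjusted p = 0.126). The 24-month arrays overlapped the 3-month and 18-month ones. Cxcl2, a second neutrophil ligand, was dim and not called in any comparison: its 3-month values were -3.23, -3.05 and -3.02 and its 9-month values -3.68, -4.14 and -4.1 (adjusted p = 0.646).

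Neutrophil markers were also low at 9 months. The mean level of 8 tested neutrophil genes ranged from -0.10 to 0.23 at 3 months, -2.60 to -2.32 at 9 months, -2.46 to -1.96 at 12 months, -2.34 to -1.50 at 18 months and -2.56 to 1.04 at 24 months. At 12 and 18 months it overlapped the 9-month range, with a median of -2.12 at each age, and all Cxcl1 values were above those of 9 months. At 12 months array 3 was highest in this mean (-1.96) and array 4 in Cxcl1 (2.97). At 18 months array 4 was highest in both (-1.50 and 4.61). At 24 months array 3 was highest in both this mean and Cxcl1. Of these 8 genes, 3 fell at 9 against 3 months, where 3.2% of all genes fell. They were Fcnb (-2.76), Camp (-4.28) and S100a9 (-4.0 on the log2 scale, adjusted p = 0.000482, 0.00415 and 0.0218). At 24 against 3 months 3 of the 8 were lower, where 13.3% of all genes were called in either direction. At 24 against 18 months 0 rose and 1 fell, against 10.8% and 15% of all genes. The part of neutrophils in the Cxcl1 result was not tested.

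The interferon-induced ligands Cxcl9, Cxcl10 and Cxcl11 all bind Cxcr3 on activated T and NK cells, but the 3 did not move alike. Cxcl10 read 0.22, -0.11 and -0.35 at 18 months and 0.90, 2.16, 2.36 and 0.86 at 24 months. The groups did not overlap, and it rose by 1.65 (SE 0.45, adjusted p = 0.0162), or 3.13-fold, a call lost without array 3 or 4 of 18 months (adjusted p up to 0.064). Cxcl9 rose by 1.5 (SE 0.50, adjusted p = 0.0429), from 0.32, 0.75 and 0.46 to 1.27, 3.65, 1.91 and 1.22. Its highest value, 3.65 on array 2, stands well clear, and leaving out any 1 of 11 arrays ended the call (adjusted p up to 0.123). Cxcl11 differed by -0.19 (adjusted p = 0.469) and kept within 0.84 and 1.76 on all 16 arrays. At 9 against 3 months none of the 3 was called, though Cxcl10 (-1.33) and Cxcl9 (-1.02) did not overlap between the groups.

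Among the other CXC ligands, Cxcl14 (NCBI gene 306748), a ligand found in many epithelia, was the 1 member called between the oldest and the youngest livers. At 3 months it read -0.42, -0.27 and -0.24. At 9 months it read 2.66, 2.63 and 2.55, a rise of 2.93 (SE 0.43, adjusted p = 0.0019), or 7.6-fold. No later array came back to the 3-month level. Values were 1.44, 2.55 and 2.82 at 12 months, 3.72, 3.45 and 3.23 at 18 months, and 3.15, 1.75, 1.29 and 1.19 at 24 months.

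Cxcl14 was thus highest at 18 months and lay lower at 24 months, by 1.62 on the log2 scale (difference -1.62, SE 0.41, adjusted p = 0.00948). Against 3 months the 24-month livers remained higher by 2.16 (SE 0.41, adjusted p = 0.00328), or 4.46-fold. On slide 1 alone, which holds 1 array of 9 months, the difference at 9 against 3 months was 2.94. With slide as a random block the 24 against 3 months difference was 1.81 (adjusted p = 0.183), and with scan session as a term the 24 against 18 months difference was -0.38 (adjusted p = 0.746).

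Cxcl12, which retains Cxcr4-bearing cells in tissue, varied little on the probe used, from 6.21 to 7.03 over all arrays. A second probe, also above background on all 16 arrays, gave 0.55 at 9 against 3 months and -0.74 at 24 against 18 months. The probe used gave 0.11 and -0.04. On the probe used, the Cxcl12 difference at 24 against 3 months was 0.49 (adjusted p = 0.0553), the smallest adjusted p among the 11 members called in no test. Cxcl13, the B-cell ligand, read 1.32, 1.26 and 1.07 at 3 months and -0.78, -1.05 and -1.83 at 9 months without being called (adjusted p = 0.136), and from 12 months on its arrays ranged from -2.38 to 1.56. Cxcl17, a mucosal ligand, was called in no test (adjusted p = 0.771 for any age).

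**Figure D3:**
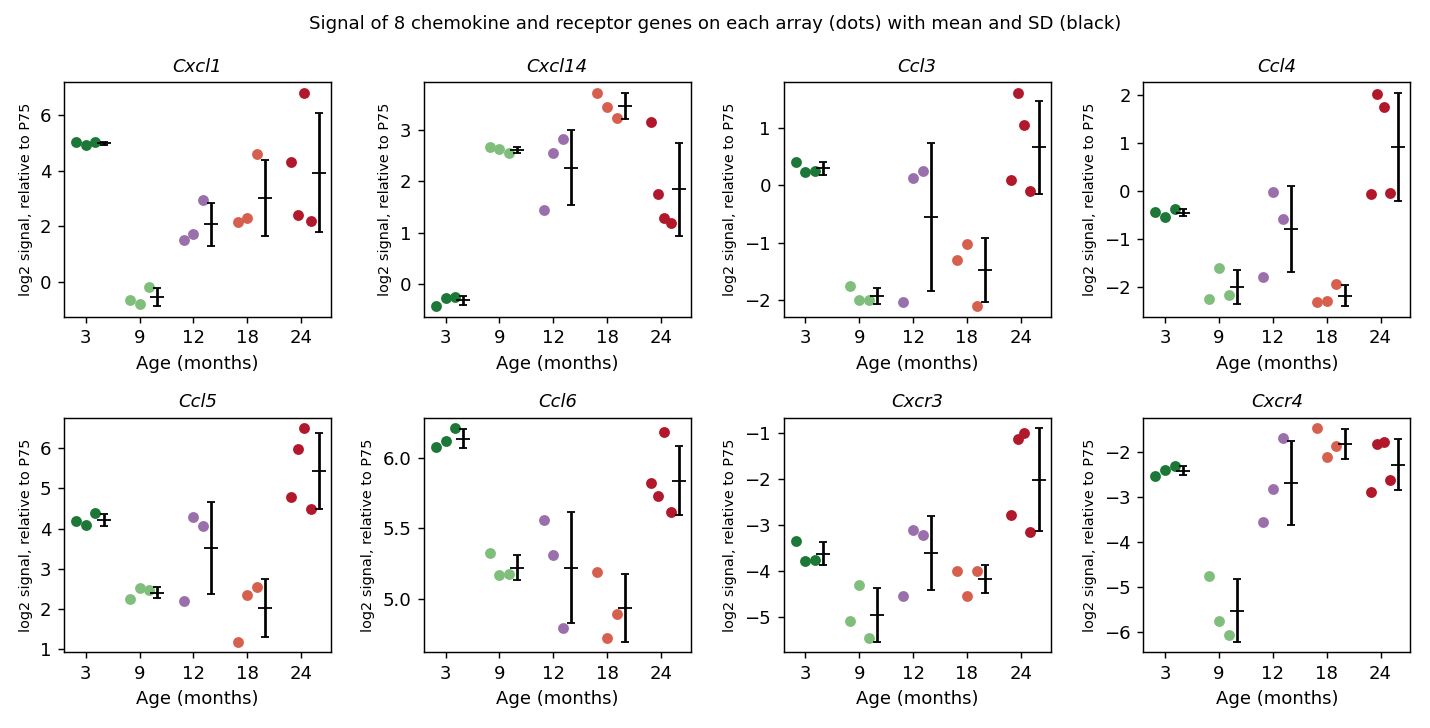
Log2 signal relative to the 75th percentile of the array (P75, vertical axis, a scale of its own in each panel) of 8 genes by age in months (horizontal axis); dots are arrays and the black bars the mean and SD. Cxcl1 falls from 5.0 to -0.54 between 3 and 9 months while Cxcl14 rises from -0.31 to 2.61, and the 24-month arrays of Ccl4, Ccl5 and Cxcr3 lie above all 18-month ones.

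The monocyte-attracting CC ligands held the largest rises at 24 against 18 months. Of 7 tested, 5 rose, where 10.8% of all genes rose, and the remaining differences, for Ccl9 and Ccl12, were also above 0. Ccl5 (NCBI gene 81780), which draws T cells and monocytes, read 1.19, 2.34 and 2.55 at 18 months and 4.78, 5.97, 6.49 and 4.49 at 24 months. Every 24-month array lay above every array of the other 4 ages. It rose by 3.41 (SE 0.53, adjusted p = 0.000404), or 10.6-fold. At 3 months it had read 4.19, 4.09 and 4.38 and at 9 months 2.25, 2.52 and 2.47, groups that do not overlap, although the difference of -1.81 was not called (adjusted p = 0.0893).

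Ccl4 and Ccl3, neighbouring genes whose products draw monocytes and T cells, followed. Ccl4 read -2.30, -2.29 and -1.93 at 18 months and -0.05, 2.02, 1.75 and -0.04 at 24 months, a rise of 3.09 (SE 0.50, adjusted p = 0.000533), or 8.52-fold. Ccl3 rose by 2.14 (SE 0.51, adjusted p = 0.00754), from -1.31, -1.02 and -2.11 to 0.08, 1.61, 1.06 and -0.11. In both, arrays 2 and 3 of 24 months were higher than arrays 1 and 4.

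Ccl3 had fallen before. It read 0.42, 0.22 and 0.24 at 3 months and -1.76, -2.01 and -2.01 at 9 months, a difference of -2.22 (SE 0.55, adjusted p = 0.032). Leaving out any 1 of the 6 arrays ended that call, with an adjusted p of up to 0.112. At 12 months Ccl3 was -2.05 on array 2 and 0.13 and 0.26 on arrays 3 and 4, a split also seen in Ccl5 (2.20 against 4.28 and 4.06). Array 2 was on slide 2 with 9-month arrays and the others on slide 6.

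Ccl6, a macrophage-derived ligand of rodents, moved in small steps with little spread between arrays. Its values were 6.07, 6.12 and 6.21 at 3 months and 5.32, 5.17 and 5.17 at 9 months, a difference of -0.91 (SE 0.20, adjusted p = 0.0149). From 5.19, 4.72 and 4.89 at 18 months it rose by 0.90 (SE 0.18, adjusted p = 0.00253), to 5.82, 5.73, 6.18 and 5.62. On slide 1 alone, with its 1 array of 9 months, the fall was -0.97. Its call was lost without any 1 of the 3-month arrays or array 2 or 3 of 9 months (adjusted p up to 0.0693). With normexp, a correction that subtracts a modelled background and here adds an offset of 50, neither step was called (-0.93 and 0.69, adjusted p = 0.0538 and 0.0893).

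Ccl2, the classical monocyte attractant and ligand of Ccr2, is measured by 10 spots on each array, whose SD within an array had a median of 0.12. Between arrays it was more variable: -2.96, -2.21 and -2.13 at 18 months and -1.39, -1.18, -0.25 and -1.71 at 24 months. The groups did not overlap, and it rose by 1.3 (SE 0.38, adjusted p = 0.0218). Leaving out array 1 of 18 months or array 3 of 24 months ended the call, with an adjusted p of up to 0.107.

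Ccl12, a second Ccr2 ligand, was called by the F test alone (adjusted p = 0.00356). It was highest at 3 months (-1.27, -1.15 and -1.02), lower at 9 months (-2.9, -3.12 and -3.1) and lowest at 12 months (-5.87, -3.18 and -4.89, with 1 array above background). The 9 against 3 months difference was -1.89 (SE 0.58, adjusted p = 0.0791). Ccl9 was flat, from 2.32 to 3.77 over all arrays, and its smallest adjusted p among the 5 comparisons was 0.188.

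Of the eosinophil and Th2 ligands, Ccl22, a ligand of Ccr4, passed the filter through 18 months alone, so a higher level there follows from the filter. It read -3.31, -3.44 and -3.01 at 18 months and was above background on no array of 24 or 3 months. The measured 24 against 18 months difference was -2.51 (SE 0.29, adjusted p = 3.59e-05), and against the background limit the signal was at least 1.92-fold lower. This bound sets the mean of the brighter group against the lowest signal well above background on the dim arrays. A dimmer second probe gave -1.91. Ccl24 was called in no comparison (adjusted p = 0.258 for any age).

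Among the homeostatic ligands, Ccl19, which guides cells bearing Ccr7 and marks lymphoid stroma, was above background throughout. It read 0.21, 0.40 and 0.02 at 18 months and 1.73, 1.08, 2.52 and 1.16 at 24 months, a rise of 1.41 (SE 0.28, adjusted p = 0.00233), or 2.66-fold. Its neighbour Ccl21 shares that receptor and differed by 0.78 (adjusted p = 0.186), with 24-month values of -0.72, -0.58, 0.55 and -1.27. Ccl27 varied by 0.69 over all 16 arrays, the narrowest range of the 11 members called in no test.

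Cx3cl1, the membrane-bound ligand of Cx3cr1, rose by 1.11 at 24 against 18 months (SE 0.30, adjusted p = 0.0142), from -0.99, -0.78 and -1.07 to 0.26, -0.41, 1.0 and -0.22. Its other probe, above background on 11 arrays, went the other way (-0.69), and the mean of both probes was not called, nor was the probe used here without array 4 of 18 months (adjusted p = 0.054). Xcl1, made by activated NK and T cells, read -2.88, -1.30, -1.02 and -2.43 at 24 months and was not called (adjusted p = 0.115).

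**Figure D4:**
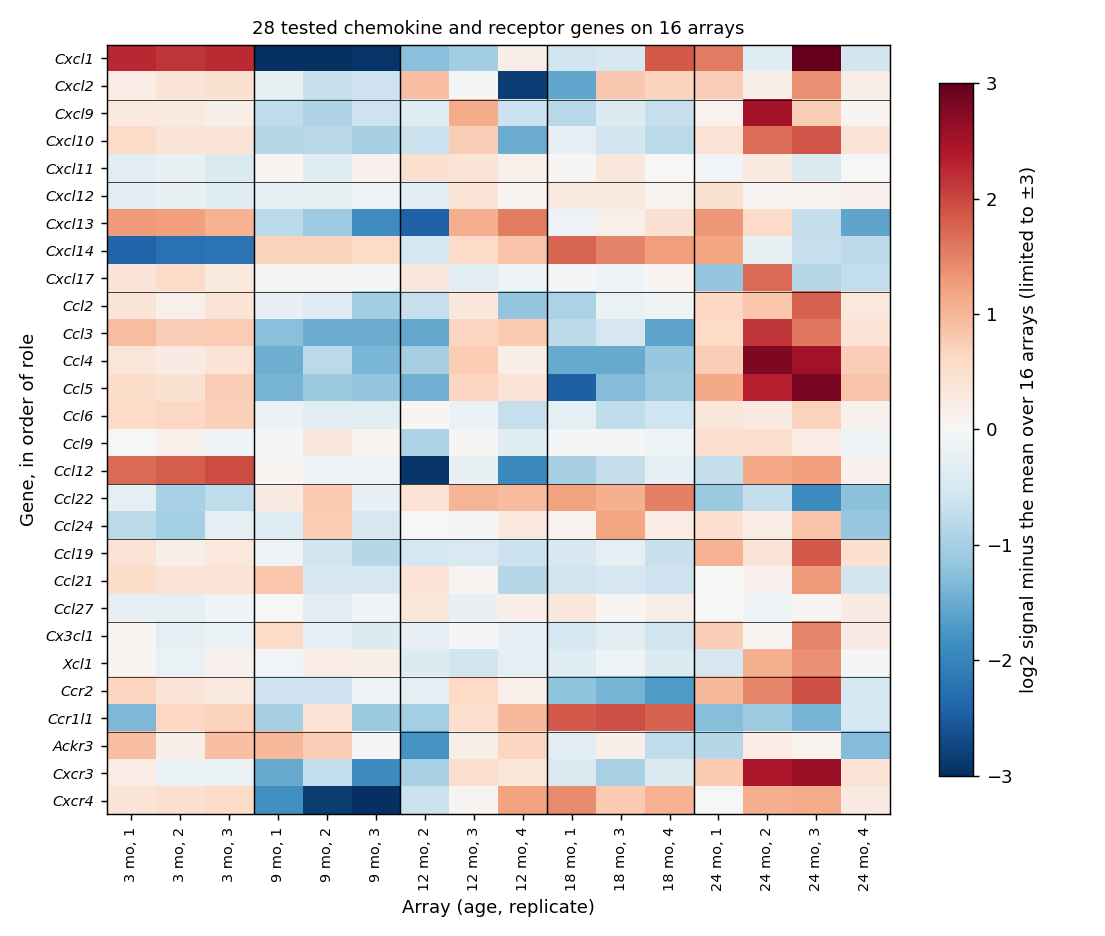
Log2 signal minus the mean of the gene over the 16 arrays (colour, limited to ±3) for 28 tested genes (rows, by role) on each array (columns, by age and replicate); vertical lines separate ages. Arrays 2 and 3 of 24 months are the reddest for Ccl4, Ccl5 and Cxcr3, and Cxcl1 and Cxcr4 are bluest at 9 months.

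Among the receptors, Cxcr4 fell at 9 against 3 months, and at 24 against 18 months Ccr2 and Cxcr3 rose. Ccr2, the receptor of inflammatory monocytes, passed the filter through 3 months alone and was above background on none of the 9 arrays of 9, 12 and 18 months. It read -6.02, -6.21 and -6.52 at 18 months and -3.85, -3.36, -2.92 and -5.35 at 24 months, where 3 of 4 arrays were above background. The measured difference was 2.38 (SE 0.42, adjusted p = 0.00104), and against the background limit the signal was at least 1.52-fold higher. Ccr1l1, a CC receptor close to Ccr1, passed through 18 months alone (-3.41, -3.33 and -3.48), so a higher level there follows from the filter. It was above background on no 24-month array, where the signal was at least 1.73-fold lower (measured difference -2.93, adjusted p = 0.00139).

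Cxcr3, the receptor for Cxcl9, Cxcl10 and Cxcl11, read -3.99, -4.54 and -4.01 at 18 months and -2.79, -1.12, -0.99 and -3.15 at 24 months. The groups did not overlap, and it rose by 2.17 (SE 0.51, adjusted p = 0.00699), or 4.49-fold, with 2 of 3 arrays of 18 months above background. Cxcr3 passed the filter through 3 and 24 months alone, so its higher level at 24 than at 18 months follows in part from the filter. At 3 months it read -3.34, -3.77 and -3.76, all lower than at 24 months, with a difference of 1.61 that was not called (adjusted p = 0.0538).

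Cxcr4 (NCBI gene 60628), the receptor for Cxcl12 on most leukocytes, was low at 9 months alone. It read -2.52, -2.38 and -2.31 at 3 months and -4.74, -5.75 and -6.06 at 9 months, above background on none of those 3 arrays. The measured difference was -3.11 (SE 0.44, adjusted p = 0.00155), and the signal was at least 4.61-fold lower against the background limit. At 12 months Cxcr4 read -3.54, -2.82 and -1.69, higher by 2.83 (SE 0.44, adjusted p = 0.00397) and at least 3.79-fold higher. A second probe gave -2.03 and 2.46.

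On slide 1 alone, with 1 array of 9 months, the Cxcr4 difference at 9 against 3 months was -3.34. On slide 2 alone, with 1 array of 12 months, that at 12 against 9 months was 1.85 and not called. Arrays 3 and 4 of 12 months were on slide 6, in another scan session than the 9-month arrays. The 12 against 9 months call was also lost with the compared ages alone, with slide as a fixed block and within a scan session. From 12 months on the Cxcr4 values stayed between -3.54 and -1.47. Ackr3 was above background on all arrays of 3 months and on no array of 18 or 24 months, and was called in no test (adjusted p = 0.226 for any age).

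Genes that act around chemokines were counted in the same way, against the shares of all genes called lower at 9 against 3 months (3.2%) and higher at 24 against 18 months (10.8%). Of 20 tested inducers and regulators of chemokine transcription, among them the NF-κB inhibitor Nfkbia, 5 fell in the first of these steps and 0 rose (median difference -0.34). They include the NF-κB targets Nfkbiz (-3.08, adjusted p = 0.000155) and Nfkbia (-1.35, adjusted p = 0.0112), and the endotoxin receptor Tlr4 (-1.5, adjusted p = 0.000388). Nfkbiz and Nfkbia rose at 12 against 9 months, by 1.71 and 1.03 (adjusted p = 0.0076 and 0.0412). Later, at 24 against 18 months, 3 of the 20 were called, a smaller share than the 25.8% of all genes: Tlr2 and Tlr4 were higher and Tnfrsf1a lower.

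Among 23 tested signalling genes below the receptors, 8 fell at 9 against 3 months, such as Rgs1 (-2.66), against 3.2% of all genes. In the step from 18 to 24 months 8 rose, including Prkcb (1.36), Gng2 (1.38) and Rac2 (1.57), and 1 fell, against 10.8% higher and 15% lower over all genes. The median difference of these genes was -0.68 and then 0.53. Of 15 tested adhesion molecules of leukocyte entry, 5 fell at 9 against 3 months (3.2% of all genes) and 7 rose at 24 against 18 months (10.8% of all genes), with medians of -0.78 and 0.88. The integrin chain Itgb2 rose by 1.40 in the later step (adjusted p = 0.00103).

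Of 5 tested atypical receptors and platelet chemokines, 1 fell at 9 against 3 months and 1 at 24 against 3 months, both times Ccrl2, a presenting receptor (-1.55 and -1.28). Of all genes, 3.2% fell in the first comparison and 13.3% were called in either direction in the second. Of 9 tested proteases that can cut chemokines, 1 fell at 9 against 3 months (3.2% of all genes), the neutrophil cathepsin Ctsg (-3.45, adjusted p = 0.016). Later 2 rose and 1 fell at 24 against 18 months, where 10.8% of all genes rose and 15% fell: Mmp2 (1.42), the macrophage elastase Mmp12 (1.91) and Prtn3 (-1.88).

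Lymphocyte markers moved in the same steps. Of 15 tested T and NK cell genes 7 fell at 9 against 3 months (median difference -1.66), where 3.2% of all genes fell. At 24 against 18 months 12 rose (median 2.15), where 10.8% of all genes rose. The smallest adjusted p-values were those of Prf1, Nkg7, Gzmk and Zap70 (differences 1.81, 3.16, 2.15 and 2.51). The mean level of the list was -0.62 to -0.43 at 3 months, -2.35 to -1.99 at 9, -2.06 to -0.93 at 12, -2.07 to -1.84 at 18 and -0.79 to 0.56 at 24 months. On arrays 1 to 4 of 24 months it was -0.71, 0.48, 0.56 and -0.79, so the arrays high in Ccl3, Ccl4, Ccl5 and Cxcr3 were also high in T and NK genes. Array 2 of 12 months was the lowest of its age in this list (-2.06 against -0.93 and -1.28) and in Ccl3 and Ccl5. The part of these cells in the chemokine results was not tested.

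Of 12 tested macrophage and Kupffer cell genes, 8 rose at 24 against 18 months (10.8% of all genes), with list means of 2.09 to 2.36 and 2.50 to 3.32. At 9 against 3 months 2 rose and 2 fell (1.94% and 3.2% of all genes). Of 5 bile duct genes, 4 rose at 24 against 18 months (10.8% of all genes), among them Krt19 (1.54). Of 10 hepatocyte genes, 1 was called at 9 against 3 months, Hnf4a (0.63), where 1.94% of all genes rose. Of 2 tested dendritic-cell genes, Batf3 rose at 24 against 18 months (1.31, adjusted p = 0.000625), where 10.8% of all genes rose. The defining marker Flt3 was above background on no array. Of 5 tested eosinophil and mast cell genes, Siglec5 was higher (1.08) and Tpsb2 and Prg2 were lower (-1.92 and -1.28) at 24 against 18 months. Of all genes, 10.8% were higher and 15% lower in that step. The list median was -1.28, and the eosinophil markers Epx and Il5ra were above background on no array.

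**Figure D5:**
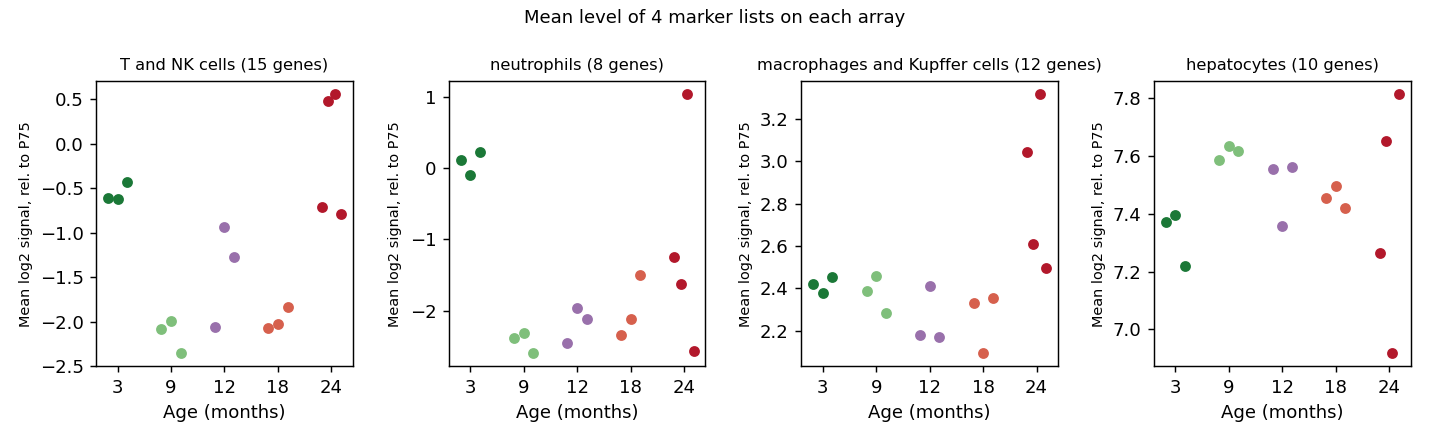
Mean log2 signal relative to the 75th percentile (P75, vertical axis, a scale of its own in each panel) of 4 marker lists on each array (dots) by age in months (horizontal axis). T and NK cell genes run from -2.35 to -1.99 at 9 months and from -0.79 to 0.56 at 24 months, and array 3 of 24 months is the highest for neutrophil genes at 1.04.

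Slide could be set apart from age only in part. Slide 1 holds all 3-month arrays and 1 array of 9 months, so values within it rest on that array. At 24 against 18 months a fit with slide as a random block, with an estimated correlation of 0.687 within a slide, left 1 of the 15 calls, that of Ccl22, whose fall follows in part from the filter, and Ccl5 at an adjusted p of 0.054. Without the 3 arrays that stood apart all 15 were called, and 16 in all.

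The normexp alternative ended calls of both dim and brighter genes. It adds an offset of 50 to each signal, where the 75th percentile of the arrays lay at intensities of 171 to 412. Such an offset draws log2 differences of dim genes towards 0, so their lost calls there cannot decide whether these genes changed. With normexp Ccl5, Ccl4, Ccl3, Ccl19, Cxcl10 and Cxcl14 kept their calls at 24 against 18 months, and Cxcl1 and Cxcl14 at 9 against 3 months. Besides Ccl6, calls ended for Ccl3 at 9 against 3 months (-1.55, adjusted p = 0.0538) and for Ccl2, Cxcl9 and Cx3cl1 at 24 against 18 months (0.75, 1.18 and 0.78, adjusted p = 0.0755, 0.193 and 0.0508). Cxcr4 moved to -0.66 at 9 against 3 months and 0.78 at 12 against 9 months, neither called (adjusted p = 0.565 and 0.364). At 24 against 18 months Ccl22 moved to -0.01, Ccr1l1 to -0.10, Ccr2 to 0.70 and Cxcr3 to 0.86, none called (adjusted p = 0.99, 0.894, 0.246 and 0.11). Counts also moved with single arrays: at 9 against 3 months 3 members were called without array 2 or 3 of 3 months or array 2 of 9 months, and at 24 against 3 months 5 were called without array 4 of 24 months.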

How the data were processed

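Liver mRNA of 16 male Lewis rat samples was measured on one-colour Agilent arrays, 1 per sample, grouped by the labelled age. Per the labels, the RNA was labelled with a microRNA kit, which is at odds with an mRNA array and stays unexplained. Signal, mean signal and background columns hold intensity values from Agilent Feature Extraction 10.7.3.1, per the file headers, not normalized between arrays. Flag columns (other units) mark spots near background, saturated or aberrant, per the file headers. A table the authors deposited for the series gives log2 values whose normalization and centring are not stated. It correlated with the scanner values at 0.997 or more on each array and served as an alternative alone.

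Here, log2 of the processed signal minus the 75th percentile of its array was used. Spots flagged as outliers were dropped, spots of a probe averaged, and 0 were saturated. Probes well above background on every array of some age were kept (25682 of 41012), and a gene was read from its kept probe with the highest mean. Names came from RefSeq (GRCr8) through the accession for 18028 probes and from the array otherwise. Ccl6, Ccr8 and Cxcl3 kept the array's name. Positions are the array's (rn4), and promoter sequences are RefSeq's.

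A mean per age was fitted to all 16 arrays with limma 3.58.1 in R 4.3.3, two-sided, with Benjamini-Hochberg adjustment over 21478 genes and a threshold of 0.05. The fitting was tested on simulated data. Every tested member called in any of the 6 tests is described, the others by level or range, except that 1 member and 3 list genes are counted but not reported here. Lists name up to 4 called genes each. The members, lists and tests were chosen with earlier results of these data known. Alternatives were quantile and normexp (offset 50) processing, the series table, other filters, probe means, slide and replicate blocks, the compared ages alone, fits within a slide and leaving out each array. Scan session and leaving out 3 arrays together were added after seeing the data.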

Additional observations from a re-analysis of the deposited data

Results flagged for a closer look

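At 24 months, the age with 4 arrays, 1 of the 29 tested genes had an array far from the rest. Cxcl17 read -1.63 on array 2, where the nearest of the other arrays read -4.07. This gap passed Dixon's limit for a group of 4, which chance passes in about 1 in 20 groups. On array 2 and 1 other array of that age Cxcl17 lay above background.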

How the results depend on the processing

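The 23 calls of single genes were recomputed under up to 29 alternatives each, 630 values in all: 546 kept direction and call, 84 kept direction alone, and 0 changed sign. Cxcl1 and Cxcl14 at 9 against 3 months kept their calls in all. The count of members called was 1 at 24 against 3 months, and 2 with no filter, 0 with slide as a random block, 3 with scan session as a term and 6 without the 3 arrays that stood apart. At 9 against 3 months it was 6, and 3 with normexp, 18 with the compared ages alone, 11 with slide as a fixed block, 18 within the shared slide (1 array of 9 months) and 14 without the 3 arrays. At 12 against 9 months it was 1, and 0 with normexp, 4 with slide as a random block, 6 as a fixed block, 4 within the shared slide (1 array of 12 months), 4 with scan session as a term, 6 within a session and 10 without the 3 arrays. At 18 against 12 months it was 0, and 2 within a session and 2 without the 3 arrays. At 24 against 18 months it was 15, and 6 with normexp, 1 with slide as a random block and 9 with scan session as a term, which rests on the 12-month arrays of both sessions. The F test called 16, and 9 with normexp. The cause of these moves was not tested. Leaving out 1 array gave 1 to 5, 3 to 9, 1 to 4, 0 to 1, 12 to 17 and 16 to 20 in the same order. The share of all genes called under each alternative is not given beside these counts. The counts therefore do not show whether the members moved more than other genes did. The fit with the replicate number as a block gave 1, 5, 1, 0, 14 and 16; the numbers share no stated pairing, and 2 of 25 same-numbered pairs of arrays correlated above 0.1. Normexp moved the median of all genes at 24 against 3 months from -0.04 to 0.12, and scan session as a term moved that at 24 against 18 months from 0.05 to -0.12. Dim genes, such as Ccr2, Ccl22 and Ccr1l1, are limited by background, and whether samples were separate animals is not stated.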
